A study of Mus musculus with 13 samples.

Results

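Calcium-binding and calmodulin-regulating proteins were followed across the excitatory neurons of the mouse claustrum. The 10 genes were a chosen list, all present among the 23427 genes of the merged count tables, and comprised 3 small calmodulin-binding proteins (Pcp4, Pcp4l1 and Nrgn), 3 cytosolic calcium buffers (Calb1, Calb2 and Pvalb) and 4 EF-hand calcium sensors (Necab1, Necab2, Necab3 and Hpcal4). Cells were kept where they held at least 1 count of Snap25, a synaptic protein of neurons, and of Slc17a7, a vesicular glutamate transporter, which left 1011 of 1112 harvested cells. Measured values thus chose the cells, and these genes are given below with no test.

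The cells were picked by hand from claustrum microdissected from 4 mature male C57BL/6 mice. In the first mouse, rAAV2-retro-CAG-GFP injected into the anterior cingulate cortex guided the dissection only, and cells were picked blind to it (238 kept cells in 3 plates, the blindly sampled mouse). In the other 3 mice, here projection mice 1, 2 and 3 (224, 220 and 329 kept cells in 10 plates), fluorescent beads carried back from axon terminals labelled neurons that project to the retrosplenial cortex (RSC, 247 cells) or to the lateral entorhinal cortex (LEC, 286 cells), and 240 cells carried no label. The age in weeks is not given in the sources used here, and a missing label does not exclude a projection to either area. No cell's counts were identical to another's and no cell name occurred in both tables, while 343 of the 368 well barcodes were used in more than 1 plate. Cells of the blindly sampled mouse were shallower, with a median total of 26023 counts per kept cell against between 138535 and 154261.5 in the projection mice. Each of 9 of the projection plates held 1 label only, so plate and label cannot be told apart there, and plate 12 held both RSC and LEC cells of projection mouse 3. Calb2 and Pvalb were not listed in the table of the blindly sampled mouse and were taken as 0 in it.

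Calmodulin is the main intracellular receptor for calcium signals and turns on kinases, phosphatases and cyclic nucleotide enzymes. Pcp4, Pcp4l1 and Nrgn carry an IQ motif, a short helix that meets calmodulin, and in neurons Pcp4 and Nrgn set how much calmodulin is free and how fast it exchanges calcium. Calbindin (Calb1), calretinin (Calb2) and parvalbumin (Pvalb) bind calcium as buffers and are classical markers of inhibitory neurons in cortex, although many excitatory neurons use Calb1. The NECAB proteins and Hpcal4, a visinin-like neuronal calcium sensor, carry EF hands, the helix-loop-helix fold that holds a calcium ion.

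The coding sequences of the 3 calmodulin regulators are shown because these genes moved in different ways although they share this motif. They were read from GENCODE M21 transcripts (GRCm38), 5′ to 3′ without the stop codon, with the 33 bases that encode the core of the IQ motif in capitals.
Pcp4: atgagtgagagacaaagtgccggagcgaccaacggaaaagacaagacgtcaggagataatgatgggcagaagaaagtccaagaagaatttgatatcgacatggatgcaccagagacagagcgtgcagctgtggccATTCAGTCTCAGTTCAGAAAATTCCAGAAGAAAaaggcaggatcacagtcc
Pcp4l1: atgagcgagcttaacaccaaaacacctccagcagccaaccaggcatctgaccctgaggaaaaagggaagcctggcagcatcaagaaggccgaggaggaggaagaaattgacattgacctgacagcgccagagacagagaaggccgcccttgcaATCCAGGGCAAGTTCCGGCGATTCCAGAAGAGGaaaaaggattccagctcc
Nrgn: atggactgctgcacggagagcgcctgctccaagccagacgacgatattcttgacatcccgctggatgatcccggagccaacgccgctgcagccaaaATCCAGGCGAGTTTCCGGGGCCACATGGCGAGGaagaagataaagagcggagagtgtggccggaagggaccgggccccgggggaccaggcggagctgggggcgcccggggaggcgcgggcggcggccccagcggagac
The encoded proteins have 62, 68 and 78 residues. Pcp4 and Pcp4l1 are identical at 31 of 62 aligned residues, Pcp4 and Nrgn at 16 of 49 (32.7%). The core lies near the end of Pcp4 (residues 46 to 56) and Pcp4l1 (52 to 62), and in the middle of Nrgn (33 to 43). In the annotation, exons of Pcp4 overlap those of Igsf5 on the same strand, and exons of Necab1 and Necab3 overlap Gm11837 and 1700003F12Rik on the other strand. The use of strand in counting is not given in the sources used here, so counts of these pairs may be shared.

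Cells were compared in 3 ways. RSC cells were set against LEC cells in 3 mice. Cells with at least 200 CPM (the gene's counts scaled to a fixed total for each cell) of Synpr, a synaptic vesicle protein used to mark claustrum neurons, were set against the others in 4 mice, 438 Synpr-high against 573 Synpr-low cells. Cells with a count of Foxp2 or Sla, which mark deep cortical neurons, were set against the other 889, and these Foxp2/Sla cells numbered 122. Just inside the Synpr limit, 13 cells had between 209 and 476 CPM, and just outside it 24 cells had between 53.9 and 199.9 CPM, so few cells lay near it. Foxp2 was seen in 90 cells (1 count in 21 of them), Sla in 73 (1 count in 12) and both in 41. A limit of 1 count is looser in the deeper projection mice. It gave 24 Foxp2/Sla cells in the blindly sampled mouse and 35, 32 and 31 in projection mice 1 to 3. At a limit of 20 CPM these were 24 and 27, 21 and 25. The part of this in the levels by mouse was not tested. Only 10 of the 122 Foxp2/Sla cells were Synpr-high. Listed claustrum markers, Synpr included, summed to between 5632 and 6432 CPM in Synpr-high cells and to between 339 and 741 CPM in Synpr-low cells. Synpr made these classes, so its part of that difference was set by the cut. The listed markers of the claustrum shell (Nnat, Slc30a3 and Spon1) went the other way. They summed to between 47.7 and 101 CPM in Synpr-high cells and to between 641 and 1876 CPM in Synpr-low cells. The listed deep-layer markers summed to between 462 and 991 CPM in Foxp2/Sla cells and to between 21.9 and 49.2 CPM in the others, Foxp2 and Sla themselves included in the first and at 0 by definition in the second.

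Levels below are CPM of the counts summed over the cells of 1 mouse and class, and the mouse is the replicate. Fewer cells with a gene and less RNA per cell cannot be told apart in such sums. Log2 fold changes and standard errors (SE) come from edgeR's quasi-likelihood F test over all genes, with Benjamini-Hochberg adjusted p-values, and a gene was called where this adjusted p was under 0.05. Counts were taken as reads, of which several may come from 1 molecule, so intervals on shares of cells cover counting error only. The listed genes, and the lists of further genes below, were chosen with earlier results of these data known. The share of them called is set beside that of all genes as a description and measures no enrichment.

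RSC cells held less Necab1, Necab2 and Hpcal4 than LEC cells, 3 of the 9 listed genes that passed the filter on low counts, beside 3.95% of all 13974 genes called in either direction. The LEC mean over mice was 1.82 times the RSC mean for Hpcal4, 8.14 times for Necab1 and 32.2 times for Necab2. Against unlabeled cells, RSC cells held less Pcp4, Necab1, Necab2 and Hpcal4, 4 of 9 genes beside 1.63% of all genes. Between LEC and unlabeled cells edgeR called 0 of the 9 genes and 0 of all genes (background 0%), with 1079 genes at an unadjusted p under 0.05, and DESeq2 called 114 genes and none of the 9.

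Synpr-high cells held less Pcp4, Necab1, Necab2 and Hpcal4 than Synpr-low cells, 4 of 8 genes tested, beside 8.81% of 13638 genes. Foxp2/Sla cells held more Pcp4 and Hpcal4 and less Calb1 than the others, 3 of 8 genes tested, beside 2.75% of 11668 genes. These classes were cut from counts of the same cells, and both comparisons use the same 4 mice. Pcp4l1, Nrgn and Necab3 were called in none of the 3 comparisons with the tests as described, though Nrgn was called with the mouse as a block (below). Calb2 and Pvalb did not pass the filter on low counts in the comparisons over 4 mice, and Pvalb passed it in none.

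**Figure D1:**
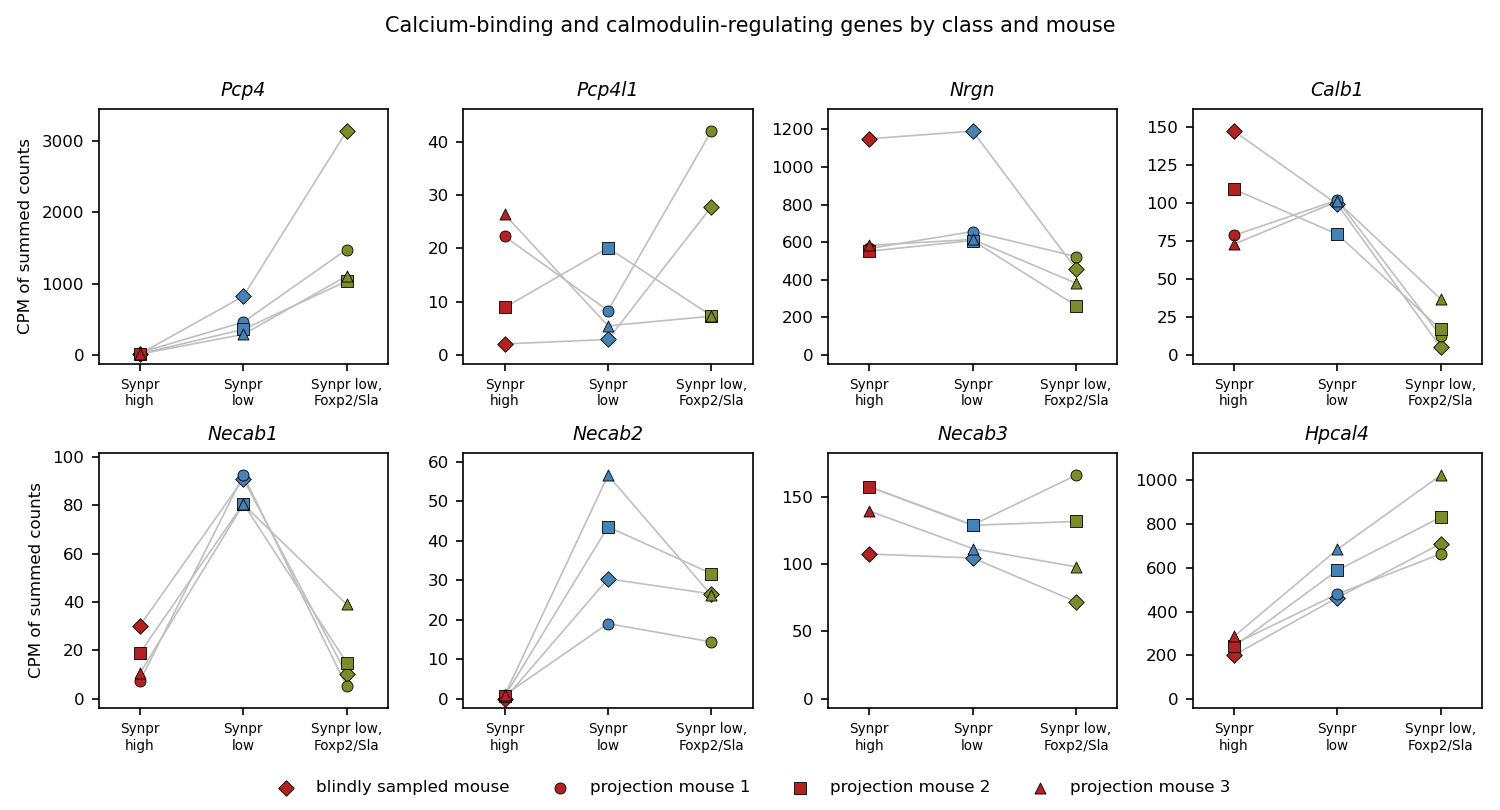
Levels of 8 of the genes in CPM of summed counts (linear y axes, each its own scale) in Synpr-high cells and Synpr-low cells without Foxp2 or Sla counts, and in Synpr-low cells with them. Each symbol is 1 mouse and grey lines join its classes. In each of the 4 mice Pcp4 and Hpcal4 were higher from class to class, Necab1 was highest in the Synpr-low cells without these counts, and Calb1 was lowest in those with them.

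**Figure D2:**
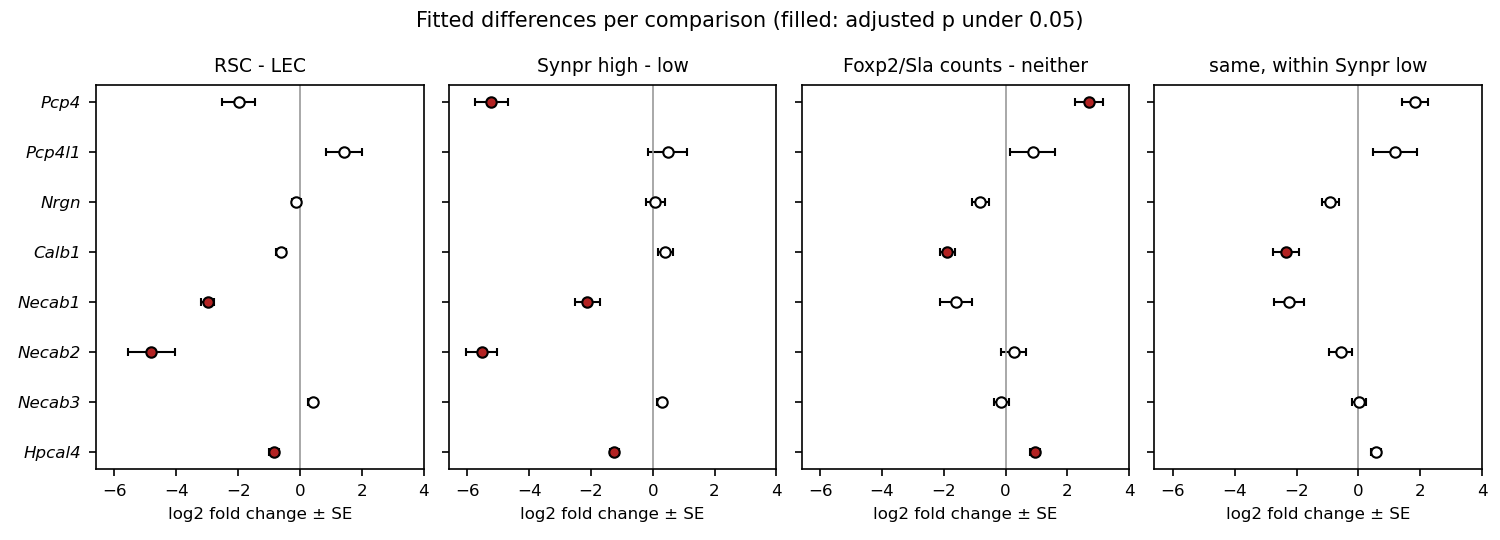
Fitted log2 fold changes (x axis) with SE as bars for 8 genes (y axis) in 4 comparisons, filled where the edgeR adjusted p was under 0.05. Pcp4 and Hpcal4 lie left of 0 for Synpr-high against Synpr-low cells and right of 0 for Foxp2/Sla cells, while Nrgn, Pcp4l1 and Necab3 are open throughout.

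Pcp4, which speeds the exchange of calcium on calmodulin, was far lower in Synpr-high than in Synpr-low cells. In Synpr-high cells its level was 13.3 CPM in the blindly sampled mouse and 35.9, 13.7 and 10.7 CPM in projection mice 1 to 3. In Synpr-low cells the same mice had 1290, 649, 485 and 407 CPM. The classes did not overlap, and the Synpr-low mean was 38.5 times the Synpr-high mean. The log2 difference of Synpr-high from Synpr-low was -5.23 ± 0.54 (SE, edgeR adjusted p = 0.000266).

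Within the Synpr-low cells Pcp4 was higher again where Foxp2 or Sla was counted. Cells with these counts had 3141, 1478, 1034 and 1105 CPM in the 4 mice in the same order, and Synpr-low cells without them had 821, 459, 356 and 286 CPM. Every mouse was higher in the first class, and the ranges did not overlap. The blindly sampled mouse was the highest in both. The log2 difference was 1.83 ± 0.42 (edgeR adjusted p = 0.0747), which missed the threshold, and with the mouse as a block it was 1.80 (edgeR adjusted p = 2.90e-05). Over all kept cells, Foxp2/Sla cells had 3038, 1308, 935 and 990 CPM and the others 399, 228, 214 and 138 CPM, again without overlap, with a log2 difference of 2.69 ± 0.45 (edgeR adjusted p = 0.0122). This call was lost without projection mouse 1, 2 or 3 (edgeR adjusted p between 0.0662 and 0.102), while the log2 difference stayed between 2.66 and 2.80.

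By projection, RSC cells had 92.0, 119.99 and 17.2 CPM of Pcp4 in projection mice 1 to 3, and LEC cells had 295, 327 and 293 CPM. RSC was lower in 3 of 3 mice, without overlap. The spread of the RSC values was wide, and the log2 difference of -1.98 ± 0.54 was not called (edgeR adjusted p = 0.0696). It was called with the mouse as a block (-2.25, edgeR adjusted p = 0.0375) and without the Foxp2/Sla cells (-2.78, edgeR adjusted p = 0.0275). Such cells numbered 3, 8 and 0 among the RSC cells of projection mice 1 to 3. Without them the RSC values were 87.1, 21.0 and 17.2 CPM. In plate 12, which held both labels, Pcp4 stood at 19.2 CPM in 34 RSC cells and 247 CPM in 44 LEC cells. Unlabeled cells had the most Pcp4, 780, 387 and 349 CPM, and of them 73 of 240 (30.4%) were Foxp2/Sla cells, against 11 of 247 RSC cells (4.45%) and 14 of 286 LEC cells (4.90%). Without the Foxp2/Sla cells, unlabeled cells had 390.4, 209 and 95.7 CPM and LEC cells 282, 324 and 284 CPM, so unlabeled cells were lower in 2 of 3 mice. The call for RSC against unlabeled cells (-2.71 ± 0.55, edgeR adjusted p = 0.0371) was lost without the Foxp2/Sla cells (-2.44, edgeR adjusted p = 0.110), without Gad1 or Gad2 cells (edgeR adjusted p = 0.0524) and without projection mouse 1 or 2 (edgeR adjusted p = 0.225 and 0.190). Of the other genes called against unlabeled cells, Necab1 (-2.68 ± 0.21, edgeR adjusted p = 0.000704) was called in each of these fits. Necab2 (-3.38 ± 0.71, edgeR adjusted p = 0.0437) and Hpcal4 (-0.94 ± 0.17, edgeR adjusted p = 0.0229) were not called without the Foxp2/Sla cells (edgeR adjusted p = 0.0828 and 0.0554) or without any 1 mouse, and Necab2 not with the mouse as a block (edgeR adjusted p = 0.0620).

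Detection followed the levels. Each cell was thinned to 20000 counts so that depth did not set the shares, which left 927 kept cells (67 of the 84 shallower ones came from the blindly sampled mouse), and classes were made again from the thinned counts. Pcp4 was then seen in 47 of 405 Synpr-high cells without Foxp2 or Sla (11.6%, exact 95% interval 8.65 to 15.1%), 359 of 441 Synpr-low cells without Foxp2 or Sla (81.4%, 77.5 to 84.9%) and 78 of 78 Synpr-low cells with them (100%, 95.4 to 100%). Without thinning it was seen in 145 of 438 Synpr-high cells (33.1%) and 511 of 573 Synpr-low cells (89.2%).

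**Figure D3:**
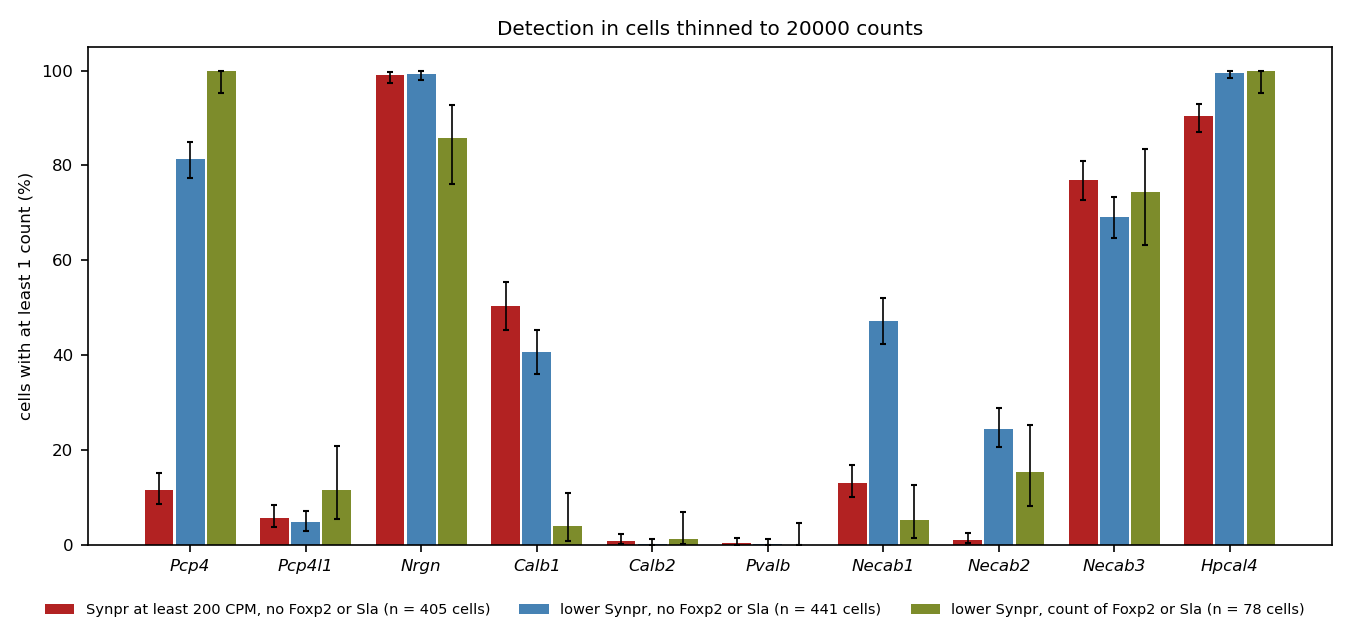
Share of cells with at least 1 count of each gene (y axis, percent, bars from 0) after thinning to 20000 counts, in 405 Synpr-high and 441 Synpr-low cells without Foxp2 or Sla counts and 78 Synpr-low cells with them. Lines are exact 95% intervals over cells, which cover counting error only. Pcp4 was seen in 11.6%, 81.4% and 100% of the cells of the 3 classes, and Calb1 in 3.85% of the last.

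Pcp4l1, the paralog of Pcp4, did not share its pattern. Synpr-high cells had 2.02, 25.04, 8.67 and 25.9 CPM and Synpr-low cells 7.91, 14.6, 17.7 and 5.72 CPM in the blindly sampled mouse and projection mice 1 to 3. The classes overlapped, and each was the higher one in 2 of 4 mice. The log2 difference was 0.48 (95% interval -0.90 to 1.86, edgeR adjusted p = 0.793), and its sign turned without the cells with Gad1 or Gad2 counts. Pcp4l1 was seen in 89 of 1011 cells, and 1 of these, a Synpr-high RSC cell of projection mouse 3 with Gad1 and Gad2 counts, held 597 of its 2116 counts (28.2%). Without cells with Gad1 or Gad2 the Synpr-high value of that mouse was 3.04 CPM. RSC cells had 26.97, 14.3 and 36.2 CPM against 12.2, 14.0 and 3.40 CPM in LEC cells, a log2 difference of 1.43 ± 0.58 that was not called (edgeR adjusted p = 0.233). Of the 718 counts in RSC cells of projection mouse 3, 597 came from the cell named above, and without cells with Gad1 or Gad2 its RSC value was 4.46 CPM and the log2 difference 0.68 (edgeR adjusted p = 0.758).

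Nrgn, which holds calcium-free calmodulin in dendrites, was found in nearly all cells. It was seen in 1000 of 1011 cells without thinning. Its level by Synpr class was 1148 against 1043 CPM in the blindly sampled mouse, and between 553 and 584 against between 543 and 631 CPM in the projection mice. The blindly sampled mouse stood well above the other 3 in both classes. The log2 difference between the classes was 0.08 (95% interval -0.60 to 0.77), and that of RSC from LEC cells was -0.11 (-0.40 to 0.18). In Foxp2/Sla cells Nrgn was lower in 4 of 4 mice, 466, 522, 294 and 405 CPM against 1170, 608, 585 and 597 CPM in the others. That log2 difference of -0.82 ± 0.27 was not called (edgeR adjusted p = 0.190), and with the mouse as a block it was (-0.75, edgeR adjusted p = 0.0275).

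Calb1 was low in Foxp2/Sla cells. These had 17.1, 21.5, 32.5 and 32.9 CPM of this buffer and the other cells 124, 89.3, 91.8 and 85.8 CPM in the blindly sampled mouse and projection mice 1 to 3. All 4 mice were lower in Foxp2/Sla cells, without overlap. Between them the log2 difference was -1.88 ± 0.26 (edgeR adjusted p = 0.00469), and without projection mouse 1 it was not called (edgeR adjusted p = 0.0601). Within Synpr-low cells the gap was wider, with 5.06, 12.4, 16.7 and 36.7 CPM against 99.1, 102, 79.5 and 101 CPM. Calb1 was the 1 gene of the 8 called in that comparison (-2.33 ± 0.42, edgeR adjusted p = 0.0304, beside 0.887% of 11044 genes), and without any 1 mouse it was not (edgeR adjusted p between 0.0592 and 0.224). With the mouse as a block 5 of the 8 genes were called there, beside 2.66% of all genes, adding Pcp4 and Hpcal4, which were higher, and Necab1 and Nrgn, which were lower. After thinning, Calb1 was seen in 3 of 78 Synpr-low Foxp2/Sla cells (3.85%, 0.800 to 10.8%), 179 of 441 other Synpr-low cells (40.6%, 36.0 to 45.3%) and 204 of 405 Synpr-high cells without Foxp2 or Sla (50.4%, 45.4 to 55.3%). Without thinning, in classes made from all counts, it was seen in 20 of 112 (17.9%), 235 of 461 (51.0%) and 263 of 428 (61.4%). Thinning thus changed both depth and class.

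The summed level of Calb1 was not called between Synpr classes as a whole. Synpr-high cells had 149, 78.7, 111 and 71.7 CPM and Synpr-low cells 80.1, 85.2, 67.6 and 91.6 CPM. The classes overlapped, and 2 of 4 mice were higher in each. The log2 difference was 0.40 (95% interval -0.14 to 0.94, edgeR adjusted p = 0.429). After thinning, Calb1 was seen in 206 of 408 Synpr-high cells (50.5%, 45.5 to 55.4%) and 182 of 519 Synpr-low cells (35.1%, 31.0 to 39.3%), a higher share of Synpr-high cells in 4 of 4 mice. RSC cells had 69.0, 51.1 and 70.7 CPM against 99.2, 100.4 and 102 CPM in LEC cells, lower in 3 of 3 mice (-0.62 ± 0.17, edgeR adjusted p = 0.0640, and 0.0412 without the Foxp2/Sla cells). In plate 12 the order was the opposite, with 90.9 CPM in RSC and 74.7 CPM in LEC cells.

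Calb2 and Pvalb were at or near 0 in most cells. Calb2 gave 342 counts in 12 cells and Pvalb 215 counts in 9 cells. A single cell held 189 of the Pvalb counts (87.9%), an RSC-labelled, Synpr-high cell of projection mouse 3. The same cell held the most Pcp4l1 and also 392 counts of Gad1 and 214 of Gad2, the enzymes that make GABA, beside 1 count of Slc17a7. The pair of cells with the most Calb2 (195 and 101 counts, together most of its counts) were RSC-labelled too and held 199 and 251 counts of Gad1, with 1 count of Slc17a7 each. Of all kept cells 20 held a count of Gad1 or Gad2, and in the other 991 cells Calb2 stood at 0.350 CPM and Pvalb at 0.194 CPM. RSC cells had 7.77, 0.992 and 9.92 CPM of Calb2 and LEC cells 0, 0 and 0.383 CPM. This difference was not called by edgeR (edgeR adjusted p = 0.156) and rests on these few cells. DESeq2 and the fit with equal weight per cell called it. Without cells with Gad1 or Gad2 the RSC values were 0.0770, 1.01 and 0.0537 CPM.

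Necab1 and Necab2, sensors named for neuronal EF-hand proteins, were low in RSC and in Synpr-high cells. RSC cells had 6.86, 7.51 and 10.02 CPM of Necab1 in projection mice 1 to 3 and LEC cells 70.6, 63.7 and 64.2 CPM. The LEC mean was 8.14 times that of RSC, and the mice of a group lay close together. This was a log2 difference of -2.98 ± 0.21 (edgeR adjusted p = 0.000254), and it was called in every fit that left out 1 mouse. In plate 12 Necab1 stood at 10.2 CPM in RSC and 68.5 CPM in LEC cells. Necab2 had 1.45, 0 and 2.37 CPM in RSC cells and 14.1, 52.0 and 56.8 CPM in LEC cells, without overlap, but projection mouse 1 had a far lower LEC value than the other 2 mice. Its log2 difference of -4.80 ± 0.75 (edgeR adjusted p = 0.00536) depends on the prior count where RSC cells hold almost none, and it was not called without projection mouse 2 or 3 (edgeR adjusted p = 0.0619 and 0.102). In plate 12 there was 1 count of Necab2 in RSC cells, below the 0.407 CPM of 3 counts, against 52.4 CPM in LEC cells.

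By Synpr class, Necab1 had 30.1, 7.20, 18.4 and 10.8 CPM in Synpr-high cells and 74.5, 76.1, 68.2 and 74.2 CPM in Synpr-low cells of the blindly sampled mouse and projection mice 1 to 3. The Synpr-low values were close together and all above the Synpr-high ones. The log2 difference was -2.11 ± 0.39 (edgeR adjusted p = 0.00769), lost without projection mouse 2 or 3 (edgeR adjusted p = 0.0562 and 0.0701). Necab2 had 0, 0.927, 0.642 and 0.906 CPM in Synpr-high cells and 29.6, 18.2, 41.3 and 52.1 CPM in Synpr-low cells, with a log2 difference of -5.53 ± 0.50 (edgeR adjusted p = 0.000130). Among Synpr-low cells the values of these genes differed where Foxp2 or Sla was counted. Necab1 was at 10.1, 5.19, 15.0 and 39.0 CPM with these counts and at 90.8, 92.4, 80.6 and 80.3 CPM without them, and the ranges did not overlap (-2.24 ± 0.48, edgeR adjusted p = 0.0605, and 0.0152 with the mouse as a block). Necab2 was at 26.5, 14.4, 31.7 and 26.2 CPM beside 30.4, 19.1, 43.5 and 56.6 CPM, with overlapping ranges and a log2 difference of -0.57 (95% interval -1.41 to 0.26).

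How often these genes were seen in the same cells was counted without a test. Of the 441 thinned Synpr-low cells without Foxp2 or Sla, 208 held Necab1 and 108 held Necab2, and 51 held both. Calb1 and Necab1 were seen together in 101 of these cells and neither in 155. Pcp4 was seen in 158 of the 208 cells with Necab1 and in 143 of the 179 cells with Calb1. In the 78 cells with Foxp2 or Sla counts, Necab1 was seen in 4 and Necab2 in 12 (15.4%, 8.21 to 25.3%).

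Necab3 was called by edgeR in none of the comparisons. It ranged from 107 to 159 CPM in Synpr-high cells and from 98.0 to 136 CPM in Synpr-low cells, higher in Synpr-high cells in 4 of 4 mice but by a log2 difference of only 0.30 (95% interval -0.02 to 0.61, edgeR adjusted p = 0.289). RSC cells had 162, 164 and 139 CPM and LEC cells 140, 116 and 101 CPM, a log2 difference of 0.42 ± 0.14 (edgeR adjusted p = 0.156).

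Hpcal4 was ordered over the classes as Pcp4 was, in smaller steps. Synpr-high cells without Foxp2 or Sla had 200.6, 251, 240.0 and 286 CPM, Synpr-low cells without Foxp2 or Sla 463, 480, 589 and 684 CPM, and Synpr-low cells with them 710, 664, 832 and 1024 CPM. Each mouse was higher at each step. The log2 difference of Synpr-high from all Synpr-low cells was -1.24 ± 0.13 (edgeR adjusted p = 0.000337), and that of Foxp2/Sla cells from the others 0.94 ± 0.16 (edgeR adjusted p = 0.0110, between 0.0624 and 0.0901 without projection mouse 1, 2 or 3). Within Synpr-low cells the second step was 0.57 ± 0.17 (edgeR adjusted p = 0.189, and 0.00626 with the mouse as a block). RSC cells had 268, 325 and 276 CPM and LEC cells 397, 572 and 615 CPM, without overlap, with a log2 difference of -0.83 ± 0.17 (edgeR adjusted p = 0.0201, and 0.150 and 0.231 without projection mouse 2 or 3). In plate 12 Hpcal4 stood at 324 CPM in RSC and 506 CPM in LEC cells.

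**Figure D4:**
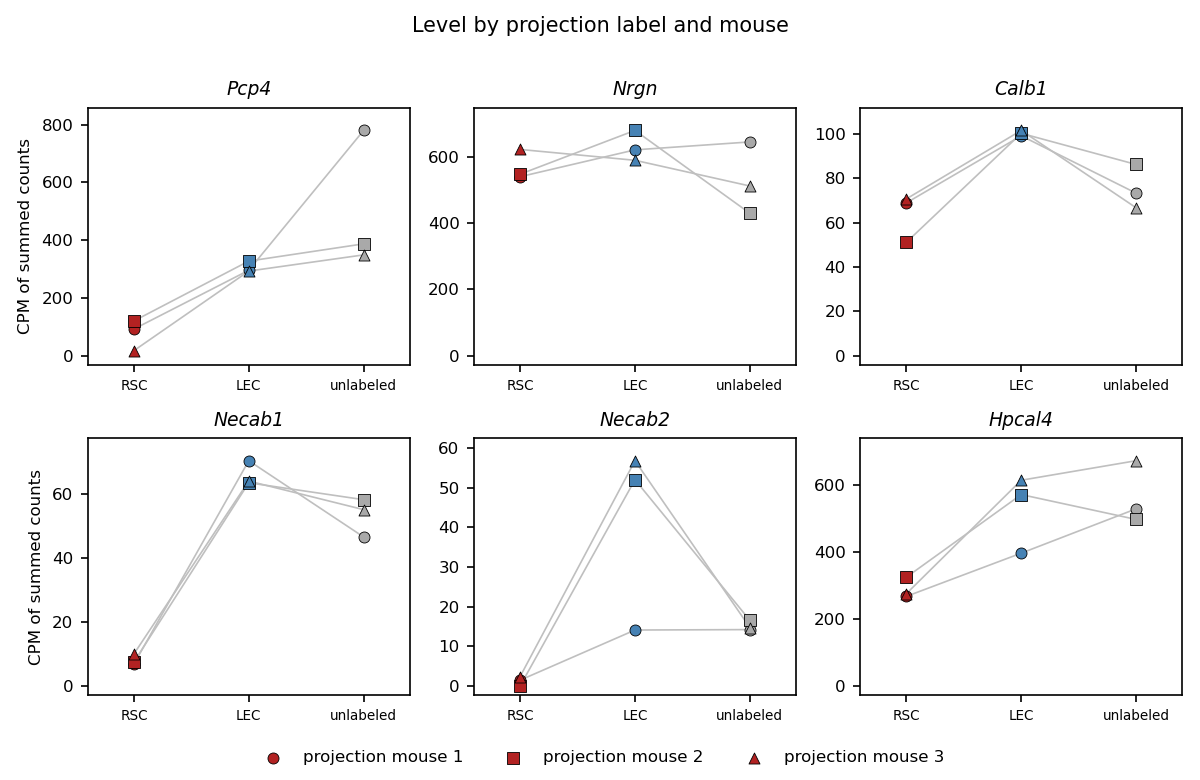
Levels of 6 genes in CPM of summed counts (y axes, linear, each its own scale) in RSC, LEC and unlabeled cells. Each symbol is 1 projection mouse and grey lines join its sums. Necab1 lies between 6.86 and 10.02 CPM in RSC and between 63.7 and 70.6 CPM in LEC cells, and the Nrgn values overlap.

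RSC and LEC cells differed in their share of Synpr-high cells, 213 of 247 and 45 of 286, so Synpr class was compared within each label. Within RSC cells, Synpr-high cells had less Pcp4, Necab1 and Hpcal4 and more Calb1 than Synpr-low cells (4 of 8 genes called, beside 1.59% of 12407 genes). Within LEC cells, Synpr-high cells had less Pcp4 and Hpcal4 (2 of 8, beside 2.59%). Only 34 RSC cells were Synpr-low (12, 14 and 8 per mouse). With another scaling 3 of the 8 genes were called within RSC cells (202 of 12407 genes), and Calb1 was not. Over the alternatives Calb1 was called there in 6 of 11 fits. Without any 1 mouse only Pcp4 was still called within LEC cells, and within RSC cells Pcp4 alone was called without projection mouse 1 and none of the 8 genes without projection mouse 2 or 3.

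Within RSC cells Pcp4 had 51.1, 8.61 and 9.54 CPM where Synpr was high and 382, 538 and 147 CPM where it was low (-3.92 ± 0.72, edgeR adjusted p = 0.0145). Within LEC cells it had 7.56, 22.7 and 4.39 CPM against 424, 394 and 349 CPM (-5.10 ± 0.79, edgeR adjusted p = 0.00294). Both labels thus showed the step by Synpr class in 3 of 3 mice. The 538 CPM of projection mouse 2 rested on 5 Foxp2/Sla cells, without which the value was 85.5 CPM over 9 cells, and without such cells the step in RSC cells was -3.29 (edgeR adjusted p = 0.0344). Necab1 stepped the same way in both, by -3.36 ± 0.62 in RSC (edgeR adjusted p = 0.0156) and -2.19 ± 0.59 in LEC cells (edgeR adjusted p = 0.0715), and Hpcal4 by -1.16 ± 0.20 (edgeR adjusted p = 0.0120) and -1.003 ± 0.20 (edgeR adjusted p = 0.0174). Necab2 was not called in either (-4.76 ± 1.57 and -5.56 ± 1.65, edgeR adjusted p = 0.171 and 0.103). The difference of the Synpr step between the labels was called for 0 of the 8 genes by edgeR, beside 0.0645% of all genes, with Calb1 and Necab3 at an unadjusted p under 0.05 (0.00243 and 0.0140), and DESeq2 called Calb1.

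Calb1 was lower in RSC cells low in Synpr than in LEC cells low in Synpr, a difference that edgeR did not call. These RSC cells (12, 14 and 8 per mouse) had 32.1, 9.43 and 8.13 CPM. LEC cells low in Synpr had 107, 96.97 and 113 CPM, so RSC cells were lower in 3 of 3 mice without overlap. The log2 difference was -2.59 ± 0.48 (edgeR adjusted p = 0.0546, just outside the threshold), and it was called without the Foxp2/Sla cells (-2.54, edgeR adjusted p = 0.0302). DESeq2 called it as well (adjusted p = 2.03e-05), and without any 1 mouse edgeR did not (adjusted p between 0.103 and 0.428). Without the 5 Foxp2/Sla cells of projection mouse 2, its RSC value was 12.9 CPM over 9 cells. Synpr-high RSC cells had 74.1, 62.3 and 74.4 CPM, a step of 2.06 ± 0.48 from the Synpr-low ones (edgeR adjusted p = 0.0488, and 0.0586 with the mouse as a block), while in LEC cells the step was -0.33 (95% interval -1.26 to 0.60). The difference between these steps was 2.39 ± 0.64 (edgeR adjusted p = 0.308), and DESeq2 called it (adjusted p = 0.0353).

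RSC and LEC cells of the same Synpr class were compared as well. Among Synpr-high cells edgeR called 0 of all 12407 genes (background 0%, 508 at an unadjusted p under 0.05), DESeq2 called 21, and neither called any of the 8. Among Synpr-low cells edgeR called 24 genes (0.193%) and 0 of the 8, with Calb1 and Necab3 at an unadjusted p under 0.05 (1.13e-04 and 0.00133), and DESeq2 called both. Necab1 in Synpr-high cells was at 1.65, 5.38 and 6.08 CPM in RSC and at 10.7, 17.3 and 23.1 CPM in LEC cells, lower in 3 of 3 mice, with a log2 difference of -1.97 ± 0.60 (edgeR adjusted p = 0.938). For Pcp4 in Synpr-low cells the log2 difference was -0.09 (95% interval -1.46 to 1.29), an interval that leaves room for sizeable differences. Without the Foxp2/Sla cells the Synpr-low RSC cells had 382, 85.5 and 147 CPM of Pcp4 and the LEC cells 409, 394 and 339 CPM, lower in 3 of 3 mice without overlap, with a log2 difference of -0.85 (edgeR adjusted p = 0.670).

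**Figure D5:**
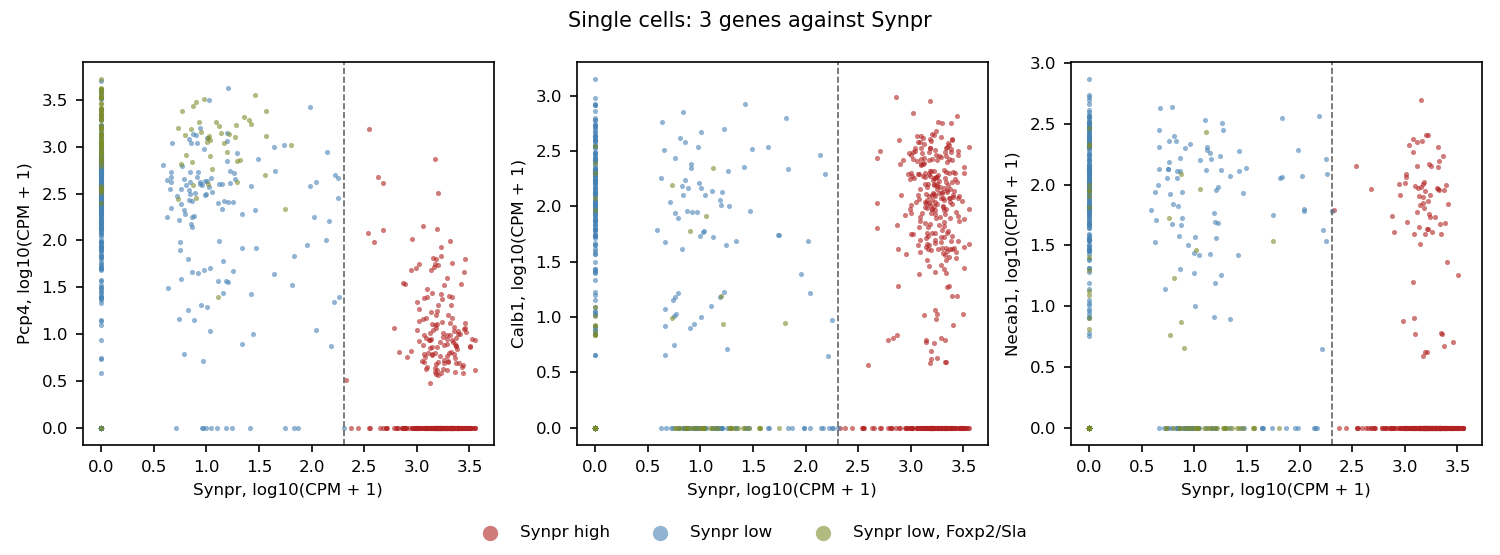
Synpr (x axis) against Pcp4, Calb1 and Necab1 (y axes) in single kept cells, all as log10(CPM + 1), with the 200 CPM limit dashed. Colours give Synpr-high cells, Synpr-low cells and Synpr-low cells with Foxp2 or Sla. Most Synpr-high cells have little or no Pcp4, few cells lie near the limit, and cells at 0 lie on the axes.

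The wider calmodulin and calcium pathway, taken as 7 lists of 64 genes, held called genes in both directions. Between RSC and LEC cells 60 of the listed genes were tested, of which 7 were higher and 4 lower in RSC cells, beside 3.95% of all genes called (median log2 difference 0.06, against 0.00 for all genes). None of 3 calmodulin genes and none of 4 calmodulin-sequestering genes was called. Of 15 calmodulin kinases and their regulators, Camk2n1 (an inhibitor of CaMKII, 0.89 ± 0.13, edgeR adjusted p = 0.00400), Camk2g (1.01 ± 0.15) and Camkk2 (0.64 ± 0.13) rose and Camkv (-0.66 ± 0.11) fell. Of 8 calcineurin genes, Rcan2, an inhibitor of calcineurin, rose by 2.17 ± 0.24 (edgeR adjusted p = 0.00164). Among 13 neuronal calcium sensors related to Hpcal4, Ncald (0.79 ± 0.13), Hpca (0.75 ± 0.14) and Vsnl1 (0.58 ± 0.12) rose in RSC cells, against the direction of Hpcal4, while Hpcal1 fell by 1.39 on the log2 scale, and 1 further gene of the list fell. S100a6 was the 1 of 11 other EF-hand and buffer genes called (-2.13 ± 0.42).

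By Synpr class 9 of 60 listed genes were higher and 4 lower in Synpr-high cells, beside 8.81% of all genes called (median 0.01, all genes 0.00). Gap43, which like Nrgn holds calmodulin through an IQ motif, rose by 0.78 ± 0.08 (edgeR adjusted p = 0.000348), 1 of 4 in its list. Of 15 calmodulin kinases and their regulators 4 rose, among them Camk2n1 (1.27 ± 0.14), Camk2n2 (1.30 ± 0.31) and Camk2g (0.74 ± 0.16), and Camkv (-0.71 ± 0.15) fell. Rcan2 rose by 2.27 ± 0.56 and Adcy1, an adenylyl cyclase that calmodulin turns on, fell (-0.78 ± 0.16). Kcnip3, an EF-hand sensor, fell (-2.91 ± 0.23, edgeR adjusted p = 5.93e-05), and Kcnip2 (0.75 ± 0.14) and Caln1 (0.43 ± 0.09) rose. S100a10 rose (1.35 ± 0.14) and S100b fell (-1.70 ± 0.41).

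In Foxp2/Sla cells 4 of 59 listed genes were higher and 1 lower, beside 2.75% of all genes called (median -0.07, all genes 0.00). Adcy1 (0.94 ± 0.17) and Pde1a, a calmodulin-dependent phosphodiesterase (0.67 ± 0.12), rose, as did Kcnip3 (1.51 ± 0.25, edgeR adjusted p = 0.0114) and Ncald (0.70 ± 0.14), and Camkk1 fell (-0.89 ± 0.20, edgeR adjusted p = 0.0454). Within Synpr-low cells Pde1a (0.72 ± 0.12, edgeR adjusted p = 0.0258) and Ncald (1.13 ± 0.18, edgeR adjusted p = 0.0201) were the 2 of 57 called, beside 0.887% of all genes.

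Likeness of pattern was measured as Pearson's r of log2 CPM over 12 sums (4 mice in the 3 classes of the plot of levels by class) against 12852 genes, as a description. The sums share libraries and depth within a mouse. Pcp4 was most like Kcnip3 (r = 0.996), then Sez6 (0.985) and Slc35f1 (0.985). Among the listed genes themselves, Pcp4 was close to Hpcal4 (0.906) and Necab2 (0.877) and ran against Calb1 (-0.690), with Necab1 at 0.124. Hpcal4 was close to Necab2 too (0.899). Necab2 was near 0 in Synpr-high cells, where log2 values are extreme. Among Synpr-low cells, those with Foxp2 or Sla had more Pcp4 and Hpcal4 but less Necab2 in 4 of 4 mice. Hpcal4 was most like Rab26 (0.961), Blcap (0.960) and Fezf2 (0.959), a deep-layer marker. Calb1 was most like Tmem145 (0.977), Necab2 like Rspo3 (0.964), Necab3 like Abce1 (0.949), Nrgn like Gm11549 (0.940) and Pcp4l1 like 2610034B18Rik (0.887).

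Other cell types were checked beside these results. The 6 listed inhibitory markers summed to between 1.16 and 509 CPM in Synpr-high cells and to between 122 and 1120 CPM in Synpr-low cells, and to between 19.6 and 716 CPM in RSC and between 478 and 1039 CPM in LEC cells, in which Gad1, Gad2 and Sst were at 0 and Npy alone gave between 478 and 1039 CPM. Npy was common in kept cells with neither Gad1 nor Gad2, at 352 CPM and seen in 580 of 991, while Sst stood at 1.97 CPM. The sums of inhibitory markers here and below thus do not count inhibitory cells. Leaving out cells with Gad1 or Gad2 took Synpr-high cells from 88, 88 and 149 to 87, 84 and 141 in projection mice 1 to 3. Synpr-low cells went from 136, 132 and 180 to 136, 130 and 175. Fits without the cells with Gad1 or Gad2 are given at the end of this paragraph. The part of the other inhibitory markers in the results was not tested. Glial and vessel markers summed to between 22.8 and 304 CPM in Synpr-high and to between 42.4 and 472 CPM in Synpr-low cells, with Aqp4 at 0 in the former. In Foxp2/Sla cells glial and vessel markers summed to between 7.34 and 49.3 CPM, against between 36.4 and 431 CPM in the others, and inhibitory markers to between 0 and 320 CPM, against between 73.8 and 856 CPM, with Gad1 at 0 in the Foxp2/Sla cells. Without the 20 cells with Gad1 or Gad2, edgeR called the same number of the listed genes in each of the 3 main comparisons (3, 4 and 3). Of all genes it called 572 of 13823, 1231 of 13572 and 303 of 11605 there.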

How the data were processed

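Single neurons picked by hand from 4 mice were sequenced. The authors aligned reads with STAR and deposited counts per gene and cell, and the submitters' processing notes name NCBIM37 and Seurat. The deposited counts were taken as reads, and cells with 1 or more counts of both Snap25 and Slc17a7 were used. Both tables were merged over 23427 genes, and a gene that 1 table does not list was taken as 0 there, which holds for Calb2 and Pvalb in the blindly sampled mouse.

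Counts were summed per mouse and class (5 cells or more) and tested with edgeR 4.0.16 in R 4.3.3 (quasi-likelihood F test after TMM scaling and filterByExpr), with p-values adjusted by Benjamini-Hochberg over all genes tested and a threshold of 0.05. Alternatives were DESeq2 1.42.0, limma 3.58.1, no filter, another scaling, other limits for Synpr and Foxp2 or Sla, thinned cells, cells with Gad1 or Gad2 left out, unlabeled cells left out, each mouse left out, and the mouse as a block. Leaving out the Foxp2/Sla cells was chosen after seeing the data. Scripts were run on simulated counts drawn without a mouse effect, which cannot show how the tests do on sums that share a mouse. The sums of 1 mouse come from the same animal, so the block pairs them. The tests as described left the mouse out of the model, so their calls do not use this pairing. Same-mouse deviations correlated with a median r of 0.176 for the Synpr classes, 0.170 for the Foxp2/Sla classes and 0.0356 for the projection labels. The highest were 0.529, 0.421 and 0.0885, and the medians between different mice were -0.0953, -0.0701 and -0.0205. Named genes were the 10 listed genes, the genes that chose the cells, up to 4 per pathway list by smallest adjusted p, and the 3 most alike in pattern, of which the text gives the nearest ones. The likeness for Necab1 is not reported here. The members and lists were chosen with earlier results of these data known. Exact intervals are Clopper-Pearson at 95%.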

Additional observations from a re-analysis of the deposited data

Results flagged for a closer look

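In 9 of 56 groups of 4 mice, 1 mouse stood apart from the other 3 by Dixon's test, and chance alone gives about 1 in 20 such groups. Several of these groups share cells, so they are not 9 separate cases. The blindly sampled mouse, with fewer counts per cell and a table of its own, was high in Nrgn in 4 of them, at 1148 CPM in Synpr-high cells, 1170 CPM in cells without Foxp2 or Sla, 1151 CPM in Synpr-high cells without Foxp2 or Sla and 1191 CPM in Synpr-low cells without them. It was also high in Calb1 (124 CPM) and low in Pcp4l1 (2.44 CPM) in cells without Foxp2 or Sla. Projection mouse 1 was high in Pcp4 in Synpr-high cells, at 35.9 CPM, and at 30.8 CPM where Foxp2/Sla cells were left out. Projection mouse 2 was low in Calb1 in Synpr-low cells without Foxp2 or Sla, at 79.5 CPM.

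The 74 cells left out for lack of Slc17a7 held 4 of the genes above their level in the kept cells of every mouse. Calb1 stood at 1901 CPM there, against between 81.5 and 112 CPM in kept cells, and Calb2 at 233 CPM, against at most 3.76 CPM. Pcp4l1 stood at 212 CPM, against between 5.15 and 19.8 CPM, and Necab2 at 88.8 CPM, against between 9.63 and 26.3 CPM. Of the 2227 Calb1 counts 2190 came from 4 cells that held both Gad1 and Gad2, and 88 of the 104 Necab2 counts came from 1 cell. The same 4 cells held all 273 Calb2 counts and 246 of the 248 Pcp4l1 counts, so these levels are not those of the 74 cells at large.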

How the results depend on the processing

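Over single genes and alternatives, 474 values kept direction and side of the threshold, 43 passed it newly, 46 no longer did and 11 changed sign. This tally and the signs listed below cover the tested genes for RSC against LEC cells and for the Synpr and Foxp2/Sla classes. Of the other comparisons they cover some genes only. For RSC against LEC cells 3 of the genes were called (552 of all 13974 genes), 6 by DESeq2 (1145) and 6 with equal weight per cell (854). In each of the last 2 fits 1 of the 6, Calb2, was higher in RSC cells. In thinned cells 5 were called (787 of 10074 genes) and without the Foxp2/Sla cells 5 (539 of 13599). With a mouse left out 1 to 3 were called (59 to 391 genes). For the Synpr classes 4 were called (1202 of 13638 genes), and 3 to 4 with a mouse left out (544 to 1579 genes). For Foxp2/Sla cells 3 were called (321 of 11668 genes), and 4 by DESeq2 (703), with the block (487) and with equal weight per cell (439). In thinned cells 4 were called (431 of 9748 genes), and 0 to 3 with a mouse left out (33 to 273 genes). Within Synpr-low cells 1 was called (98 of 11044 genes), 4 by DESeq2 (397) and 5 with the mouse as a replicate block (294). With equal weight per cell 3 were called (224). With no filter it was 3 (145 of 21066 genes), in thinned cells 3 (221 of 8410) and at a limit of 20 CPM 3 (236 of 10566). With a mouse left out 0 to 1 were called (1 to 70 genes). The block lost no call other than those given with the results. Signs that changed were those of Pcp4l1 between Synpr classes (-0.11 to 0.96 with a mouse left out, lowest without projection mouse 3, -0.10 with equal weight per cell, -0.13 without Gad1 or Gad2 cells, -0.63 at a Synpr limit of 500 CPM), Nrgn between Synpr classes (-0.0518 without the Foxp2/Sla cells), Necab3 by Foxp2/Sla within Synpr-low cells (-0.0353 with no filter, -0.0357 with the block, -0.16 to 0.12 with a mouse left out, below 0 without projection mouse 1 or 2, -0.0023 with equal weight per cell) and Calb1 between Synpr classes in LEC cells (-0.75 to 0.0109 with a mouse left out, above 0 without projection mouse 3), none of them called. Comparisons outside the tally held further changes of sign. Pcp4 went from -0.85 to 0.18 over the alternatives for RSC against LEC cells within Synpr-low cells. For LEC against unlabeled cells it went from -0.94 to 0.35. The cause of these changes of sign was not tested. Calls over all genes ranged from 59 to 1145 for RSC against LEC cells (552 as tested), from 544 to 1992 for Synpr (1202), from 33 to 703 for Foxp2/Sla (321) and from 1 to 397 within Synpr-low cells (98).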
